A study of Homo sapiens with 6 samples.

Results

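Small structured RNAs made by RNA polymerase III were followed through total RNA sequencing of HEK293 cells, an established human line of embryonic kidney origin. The 8 members were chosen by name as RN7SK, RN7SL1, RN7SL2, RMRP, RPPH1, VTRNA1-1, RNY1 and RNY3, out of 60675 gene rows in the deposited table. There were 3 libraries labelled MOCS2 RNAi knockdown and 3 labelled control, whose genotype label is wild type. Both were grown in high-glucose DMEM with serum and Geneticin. RNA was extracted with TRIzol and libraries were made with a stranded total RNA kit after removal of ribosomal RNA. The labels give neither the RNAi sequence nor whether a replicate was a separate culture, so the p-values speak only to the spread among the libraries, which may be technical. Reads assigned to genes numbered 18726700, 17958632 and 19362299 in the libraries labelled knockdown, against 21916142, 22171106 and 19895547 in the controls.

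Polymerase III makes short, abundant transcripts that fold into stable structures and mostly work inside RNA-protein particles. 7SK (RN7SK) holds the elongation factor P-TEFb inactive, 7SL (the RN7SL genes) is the scaffold of the signal recognition particle, and RMRP and RPPH1 are the RNA subunits of RNase MRP and RNase P. Vault RNAs (VTRNA) and Y RNAs (RNY) are carried by the vault particle and by the Ro and La proteins. Many of these genes have large families of related copies in the human genome.

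Some members have near-identical copies, and a read that fits several copies may not be counted to any row. GENCODE 29 transcripts on GRCh38 were aligned in pairs. RN7SL1 and RN7SL2, both on chromosome 14, matched in 295 of 300 aligned columns, with a longest identical run of 205 bases. RN7SL3, a further 7SL gene of chromosome 14, matched RN7SL1 in 292 of 299 columns.

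The Y and vault RNAs differed more from their relatives. RNY1 (chr7:148987136-148987248, minus strand) and RNY3, also on chromosome 7, matched in 82 of 113 columns, or 72.6%. VTRNA1-1 (chr5:140711275-140711373, plus strand) and VTRNA1-3 (chr5:140726158-140726246, plus strand) matched in 82 of 99 columns, or 82.8%. The vault RNA pair is shown because most vault RNA reads lay in VTRNA1-3 and few in VTRNA1-1. Sequences are written 5′ to 3′ as DNA letters, and capitals mark the bases that differ within the pair.
VTRNA1-1: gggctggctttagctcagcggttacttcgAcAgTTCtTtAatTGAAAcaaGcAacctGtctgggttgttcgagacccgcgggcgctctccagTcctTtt
VTRNA1-3: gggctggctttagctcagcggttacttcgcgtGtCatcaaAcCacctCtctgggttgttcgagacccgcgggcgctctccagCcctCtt

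RN7SK (chr6:52995620-52995950, plus strand) is shown by its first 120 of 331 bases, with capitals on each GATC, the short motif that HEXIM1 is known to bind in the 5′ hairpin. All 3 GATC matches of the transcript lay in this stretch. RMRP (chr9:35657751-35658018, minus strand) is shown whole, with capitals on the bases outside a second annotated RMRP row, which covers 264 of its 268 bases.
RN7SK: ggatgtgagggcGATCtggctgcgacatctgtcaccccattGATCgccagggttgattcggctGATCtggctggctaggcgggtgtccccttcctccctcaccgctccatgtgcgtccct
RMRP: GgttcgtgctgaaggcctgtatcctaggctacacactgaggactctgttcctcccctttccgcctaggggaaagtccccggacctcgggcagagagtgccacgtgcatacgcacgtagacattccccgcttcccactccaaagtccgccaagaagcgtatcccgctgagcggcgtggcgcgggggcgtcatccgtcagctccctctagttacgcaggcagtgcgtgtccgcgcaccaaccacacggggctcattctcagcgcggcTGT

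RNA of the targeted gene showed no measured loss in the libraries labelled knockdown. Libraries labelled knockdown held MOCS2 at 69.8, 58.9 and 59.9 CPM, against 57.8, 66.6 and 65.6 CPM in the controls, where CPM is counts scaled to library size with edgeR's TMM factors. The groups overlapped, with a log2 fold change of -0.01 (SE 0.14, edgeR adjusted p = 0.976). Every direction given here thus goes by the label and not by a measured loss of MOCS2 RNA. All 7 HEK293 markers had reads in all 6 libraries and summed to 0.494 to 0.597% of gene reads in the libraries labelled knockdown, against 0.441 to 0.463% in the controls. EEF1A1 and VIM made up most of that sum, while NEFL lay the other way without overlap, at 116 to 134 CPM in the libraries labelled knockdown and 157 to 167 CPM in the controls. The 7 fibroblast markers summed to 0.00105 to 0.00192% in the libraries labelled knockdown and 0.00210 to 0.00348% in the controls. LUM at -2.64 and PDGFRA at -1.96 (log2 fold change) lay lower without overlap, while COL1A1 at 0.19 and COL3A1 at 0.29 overlapped. The 4 blood markers had 4 to 12 reads in the libraries labelled knockdown and 3 to 11 in the controls, and the 2 hepatocyte markers had 2 to 6 reads in both groups. The part of these marker levels in the results was not tested. Replicates spread more among the libraries labelled knockdown, where the median SD of log2 CPM over tested genes was 0.311, against 0.161 among the controls.

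RN7SK held most of the reads counted to the 8 member rows. Reads that fit several copies or rows may be missing from these counts, so they do not rank the RNAs in the cell. The 8 members together took 2.09%, 2.97% and 1.75% of gene reads in the libraries labelled knockdown, against 2.09%, 1.80% and 2.73% in the controls. The means were 2.27 ± 0.631% in the libraries labelled knockdown and 2.20 ± 0.476% in the controls (SD, n = 3 each), a difference well within the spread of either group. RN7SK supplied between 99.8% and 99.9% of these reads and was rank 1 among all gene rows in each of the 6 libraries. The other 7 members summed to 606, 566 and 533 reads in the libraries labelled knockdown, against 924, 635 and 900 in the controls. These sums did not overlap as read numbers, but the controls also had more reads assigned to genes. As shares of gene reads the groups overlapped, at 0.00305 ± 0.000258% in the libraries labelled knockdown and 0.00387 ± 0.000883% in the controls (SD, n = 3 each). In bulk RNA, fewer cells with an RNA and less of it per cell cannot be told apart.

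**Figure D1:**
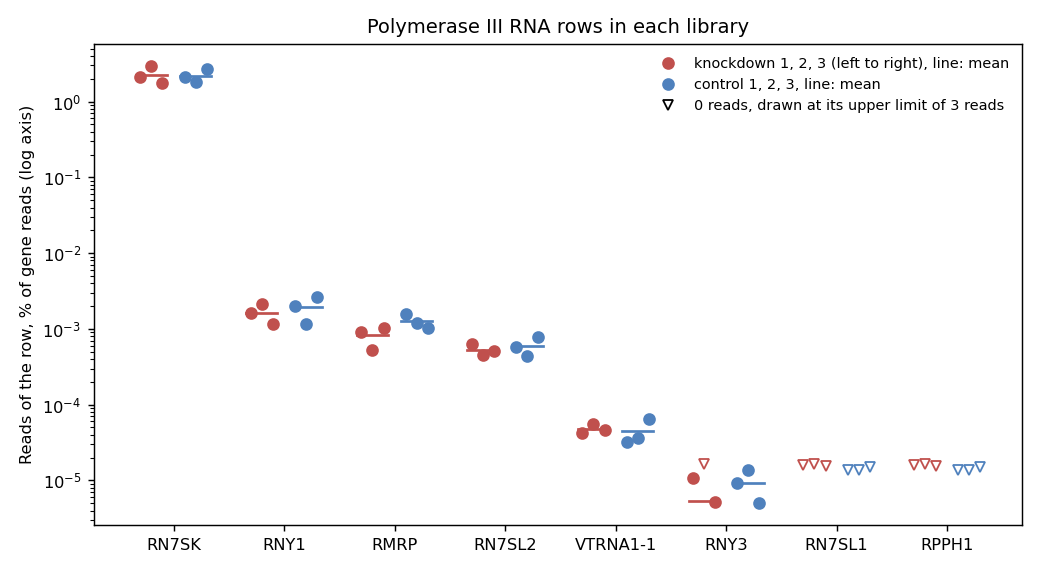
Share of gene reads (%, log axis) of each member row in the 3 libraries labelled knockdown (left of each pair) and the 3 controls, with a line at each group mean. RN7SK lies near 2%, the other rows with reads lie at or below 0.00263%, and open triangles mark rows with 0 reads at their upper limit of 3 reads, which can lie above a row with 1 or 2 reads.

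Per length, the RN7SK row stood far above the other member rows. The same limit on counted reads holds here, also for RMRP, which overlaps a second annotated row. RN7SK had 52733 to 89648 RPKM (reads scaled to row length and to gene reads) in the libraries labelled knockdown and 54161 to 82203 in the controls. RNY1 followed at a mean of 145 ± 42.5 RPKM in the libraries labelled knockdown and 172 ± 65.3 RPKM in the controls (SD, n = 3 each). RMRP had 30.6 ± 9.79 RPKM in the libraries labelled knockdown and 47.7 ± 10.5 RPKM in the controls. These 3 levels did not overlap each other in any library. RN7SL2 had 17.8 ± 3.12 RPKM in the libraries labelled knockdown and 19.9 ± 5.67 RPKM in the controls, and its range met that of RMRP in the libraries labelled knockdown only. VTRNA1-1 reached at most 6.60 RPKM and RNY3 at most 1.33 RPKM, while RN7SL1 and RPPH1 had no reads.

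Of the 8 members, 4 passed the filter on low counts (RN7SK, RN7SL2, RMRP and RNY1), and 0 of these passed the edgeR test at an adjusted p under 0.05. The same test called 0% of the 18267 genes tested. At an unadjusted p under 0.05 it marked 0 of the 4 members and 20.5% of all tested genes, and the groups were free of overlap in CPM for 0 of the 4 members and for 26.8% of all tested genes. The median log2 fold change was -0.18 over the 4 members and 0.02 over all tested genes.

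RN7SK was counted to a row whose identifier, ENSG00000202198, is named 7SK in a newer gene table. The row was matched by its coordinates, since the identifier that GENCODE 29 names RN7SK is not a row of the table. RN7SK had 390496, 532893 and 337964 reads in the libraries labelled knockdown, against 456605, 397468 and 541341 in the controls. Knockdown replicate 2 was the highest and knockdown replicate 3 the lowest share of all, with the controls between them. The log2 fold change was 0.06 (SE 0.25, 95% interval -0.49 to 0.60, edgeR adjusted p = 0.921), and it turned to -0.14 without knockdown replicate 2 and to -0.08 without control replicate 2. Over the whole 7SK family of 300 rows, 156 of them with reads, RN7SK held 99.4% to 99.6% of the reads in every library.

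The libraries richest in 7SK were also the richest in mitochondrial RNA. Mitochondrially encoded genes took 1.40%, 3.39% and 1.39% of gene reads in the libraries labelled knockdown, against 1.63%, 1.67% and 2.32% in the controls. Knockdown replicate 2 and control replicate 3 were the highest for both. Reads outside genes made up 37.5% of uniquely aligned reads in knockdown replicate 2 and 21.5% to 25.0% in the other 5 libraries, and 4 nuclear long RNAs summed to 0.638% of gene reads in that library, against 0.249% to 0.419% in the others. MALAT1 alone made up 0.597% there. NEAT1 lay at 0.0267% in that library, against 0.0307% to 0.0400% in the controls. It was lower still in knockdown replicates 1 and 3, at 0.0108% and 0.0181%. The part of these library features in the 7SK levels was not tested.

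**Figure D2:**
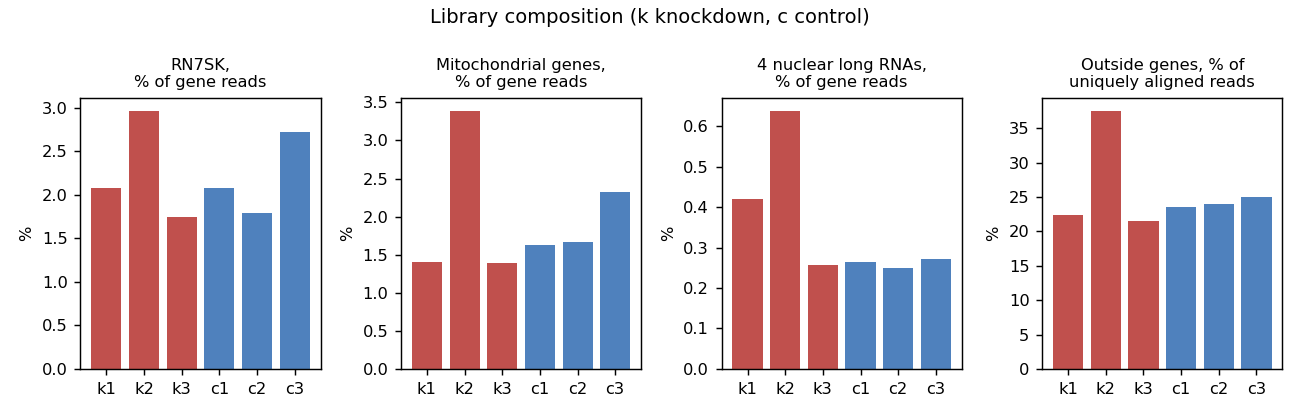
RN7SK, mitochondrial genes and 4 nuclear long RNAs (% of gene reads) and reads outside genes (% of uniquely aligned reads), 1 bar per library, with the libraries labelled knockdown (k1 to k3) left of the controls (c1 to c3). Knockdown replicate 2 is the highest in all 4 panels, and control replicate 3 is second for RN7SK and for mitochondrial genes.

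Likeness to RN7SK across the 6 libraries was measured as the root mean square difference of centred log2 CPM over 10461 genes of at least 10 CPM, and close profiles are named. POLR2A, the largest subunit of RNA polymerase II, differed by 0.0694, RNU4-2, a U4 spliceosomal RNA, by 0.0763 and CD58, a cell adhesion protein, by 0.0932, where RN7SK itself varied by 0.265 about its mean. RNU4-2 had 79.8, 99.0 and 64.7 CPM in the libraries labelled knockdown, against 81.9, 60.9 and 93.4 CPM in the controls. For RMRP, RBP7 at 0.104 and TUBG1 at 0.145 were among the closest, where RMRP varied by 0.494. RN7SL1 and RPPH1 had no profile to compare.

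The 7SL row with the most reads was RN7SL3, which is not a member. RN7SL1 had 0 reads in all 6 libraries, which allows up to 1.35e-05% to 1.67e-05% of gene reads for reads counted to that row, counting error only. A row on the same strand that covers all 299 of its bases, AL139099.4, also had 0 reads in all 6. The table sets aside 864902 to 1065384 reads per library as ambiguous between rows, so the limit does not bound the level of RN7SL1 RNA itself. RN7SL2 had 119, 81 and 100 reads in the libraries labelled knockdown, against 125, 98 and 155 in the controls. The groups overlapped, with a log2 fold change of -0.13 (SE 0.28, 95% interval -0.76 to 0.50, edgeR adjusted p = 0.833). With the sequences of these genes so alike, a read that lies wholly in a shared run fits more than 1 gene, and the table holds 23936002 to 33098444 alignments that were not unique per library.

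Reads counted to the RN7SL3 row lay apart between the groups, though reads that fit several 7SL copies may be missing from it. RN7SL3 had 97.7, 93.7 and 133 CPM in the libraries labelled knockdown, against 209, 222 and 423 CPM in the controls. All 3 libraries labelled knockdown lay below all 3 controls, as for 14.3% of all tested genes, and control replicate 3 stood highest. Its log2 fold change was -1.40 (SE 0.27, 95% interval -1.99 to -0.80, edgeR adjusted p = 0.0745), so it did not pass the edgeR threshold. Without knockdown replicate 3 the edgeR adjusted p was 0.00662, where 14.8% of genes passed. DESeq2 gave an adjusted p of 7.51e-05, where it called 6.94% of the genes it adjusted, and over all alternatives the adjusted p ran from 1.37e-09 to 0.389. Per length RN7SL3 had 357 ± 68.2 RPKM in the libraries labelled knockdown and 955 ± 396 RPKM in the controls (SD, n = 3 each).

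The remaining 844 rows of the 7SL family overlapped between groups. They summed to 0.0260%, 0.0301% and 0.0232% of gene reads in the libraries labelled knockdown, against 0.0230%, 0.0193% and 0.0309% in the controls. RN7SL3 made up 25.8%, 24.3% and 35.5% of the family's reads in the libraries labelled knockdown, against 47.3%, 53.0% and 57.1% in the controls. The ratio of RN7SL3 to RN7SL2 reads was 14.5, 21.8 and 25.2 in the libraries labelled knockdown, against 37.2, 50.4 and 54.2 in the controls. With all 846 rows summed before the fit, the family's log2 fold change was -0.49 (SE 0.22, edgeR adjusted p = 0.235). Whether RN7SL3 differed from the other 7SL rows in its response was not tested.

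**Figure D3:**
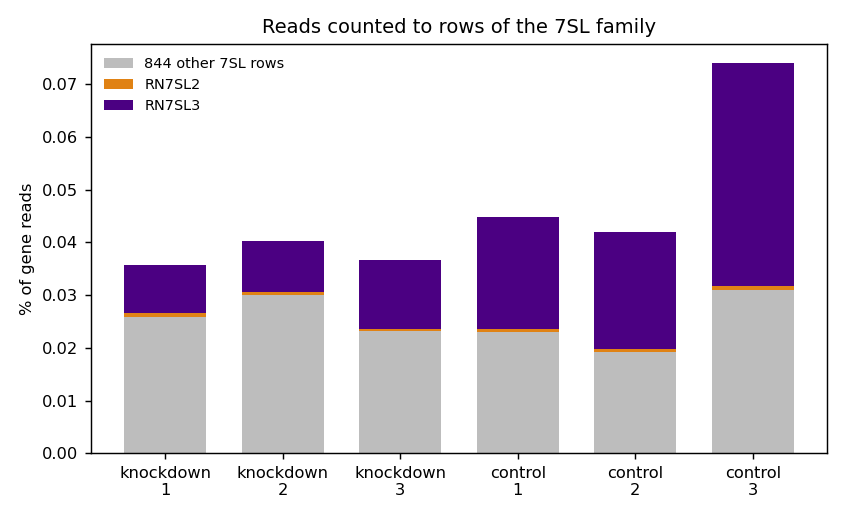
Reads counted to the 7SL family as % of gene reads, 1 bar per library with the libraries labelled knockdown left of the controls, split into RN7SL3, RN7SL2 and 844 other rows. RN7SL3 is the part that separates the groups, at 0.00922% to 0.0130% in the libraries labelled knockdown and 0.0212% to 0.0422% in the controls.

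RMRP had the most negative log2 fold change of the 4 tested members. Its row had 171, 94 and 198 reads in the libraries labelled knockdown, against 348, 268 and 207 in the controls. In CPM the values were 9.67, 4.996 and 10.4 in the libraries labelled knockdown, against 15.6, 12.0 and 10.4 in the controls. Knockdown replicate 3 and control replicate 3 met, so the groups overlapped in CPM. As shares of gene reads all 3 libraries labelled knockdown lay below all 3 controls. The closest were 0.00102% in knockdown replicate 3 and 0.00104% in control replicate 3. How many of all genes lay below on this measure was not counted, while in CPM 14.3% of all tested genes did. The log2 fold change of RMRP was -0.60 (SE 0.29, 95% interval -1.24 to 0.03, edgeR adjusted p = 0.264), and it ran from -0.80 to -0.34 when each library was left out. The second annotated RMRP row had 0 reads in all 6 libraries. It lies on the same strand and covers 264 of the 268 bases, so reads that fit both rows may be among the ambiguous reads. The counts given here may thus be only a part of the RMRP reads, and the size of that part was not tested.

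RPPH1 had 0 reads in all 6 libraries in its own row (chr14:20343075-20343407, minus strand). An annotated row on the same strand, AL355075.4 (chr14:20343048-20343685), covers all 333 of its bases, and that row had 5665, 3990 and 6351 reads in the libraries labelled knockdown, against 6985, 5759 and 6950 in the controls. In CPM it averaged 289 ± 67.2 in the libraries labelled knockdown and 307 ± 46.0 in the controls (SD, n = 3 each), with overlap between the groups. The log2 fold change of AL355075.4 was -0.09 (SE 0.20, 95% interval -0.53 to 0.36, edgeR adjusted p = 0.834). A read wholly inside RPPH1 fits both rows and may be among the ambiguous reads, so the AL355075.4 values do not measure RPPH1. Which share of the AL355075.4 reads came from RPPH1 was not tested.

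Among the Y RNAs, RNY1 held 306, 381 and 225 reads in the libraries labelled knockdown, against 442, 258 and 524 in the controls. The groups overlapped widely, and control replicate 3 was highest. RNY1 had a log2 fold change of -0.23 (SE 0.29, 95% interval -0.88 to 0.43, edgeR adjusted p = 0.697). RNY3 had 2, 0 and 1 reads in the libraries labelled knockdown, against 2, 3 and 1 in the controls, too few for a fold change, and RNY4 had 2, 3 and 0 reads in the libraries labelled knockdown, against 0, 2 and 2 in the controls. RNY1 made up 38.1% to 59.1% of the reads of 812 Y RNA rows. Summed, those rows gave a log2 fold change of -0.06 (edgeR adjusted p = 0.898).

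Vault RNA reads lay mainly in VTRNA1-3. VTRNA1-1 had 8, 10 and 9 reads in the libraries labelled knockdown, against 7, 8 and 13 in the controls, and did not pass the low-count filter. VTRNA1-3, a paralogue, had 279, 344 and 176 reads in the libraries labelled knockdown, against 240, 147 and 185 in the controls. Knockdown replicates 1 and 2 were above every control in CPM, and knockdown replicate 3 was not. The log2 fold change of VTRNA1-3 was 0.70 (SE 0.28, 95% interval 0.08 to 1.32, edgeR adjusted p = 0.200). Without knockdown replicate 3 it was 0.93 with an edgeR adjusted p of 0.0232, where 14.8% of genes passed. The adjusted p ranged from 0.0232 to 0.552 over the alternatives. VTRNA2-1 had 37, 44 and 16 reads in the libraries labelled knockdown, against 18, 25 and 19 in the controls. Its log2 fold change was 0.86 (edgeR adjusted p = 0.262), and the adjusted p ran from 0.0414, without knockdown replicate 3, to 0.530 over the alternatives.

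Other structured RNAs made by polymerase III or polymerase II give a frame for these values. BCYRN1, a brain cytoplasmic RNA of polymerase III, had 230, 944 and 329 CPM in the libraries labelled knockdown, against 553, 623 and 849 CPM in the controls. Knockdown replicate 2 alone exceeded every control, and the log2 fold change of -0.43 (SE 0.43, edgeR adjusted p = 0.598) was -1.28 without it. Of 10 polymerase II structured RNAs 7 were tested, with a median log2 fold change of 0.04. RNU4-1, a U4 RNA, had 21.5, 21.8 and 30.3 CPM in the libraries labelled knockdown, against 38.5, 31.4 and 47.9 CPM in the controls. All 3 libraries labelled knockdown lay below, with a log2 fold change of -0.68 (SE 0.20, edgeR adjusted p = 0.120), while RNU4-2 had 0.04. DESeq2 gave RNU4-1 an adjusted p of 0.0459, in a range over alternatives of 0.0159 to 0.406.

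**Figure D4:**
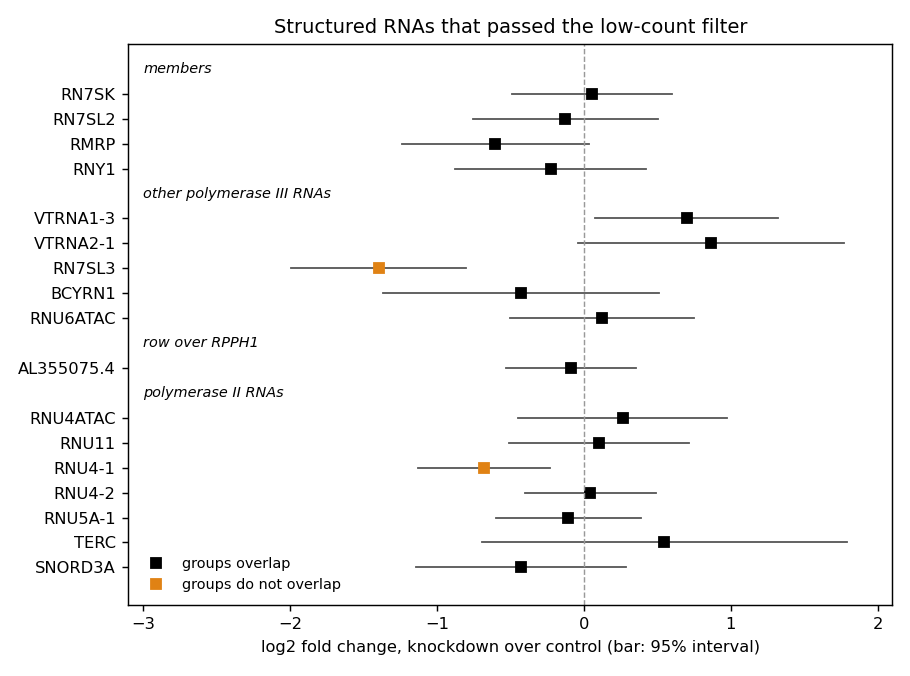
log2 fold change, libraries labelled knockdown over controls, of the structured RNA rows that passed the low-count filter, with bars for the 95% interval from the edgeR fit. RN7SL3 at -1.40 and RNU4-1 at -0.68 are the rows whose groups do not overlap in CPM.

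The protein partners gave 31 tested genes in 6 lists, of which 0 passed the adjusted threshold. At an unadjusted p under 0.05, 4 were higher and 3 lower, where 9.93% and 10.6% of all tested genes were. The groups were free of overlap for 5 above and 3 below, where 12.5% and 14.3% of all tested genes were. The median over the 31 was 0.02, as over all tested genes.

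Of the 7SK particle, HEXIM1, the inhibitor of P-TEFb that binds 7SK, had 115, 149 and 73.3 CPM in the libraries labelled knockdown, against 72.9, 52.8 and 78.8 CPM in the controls. Knockdown replicate 3 lay among the controls. HEXIM1 had a log2 fold change of 0.73 (SE 0.25, 95% interval 0.18 to 1.27, edgeR adjusted p = 0.149). Without knockdown replicate 3 its edgeR adjusted p was 0.00978, where 14.8% of genes passed. The adjusted p ranged from 0.00978 to 0.488 over the alternatives. LARP7 and MEPCE, which bind and cap 7SK, and CDK9 and CCNT1, the P-TEFb subunits, lay between -0.18 and 0.18. Of these, CCNT1 at 0.18 lay above the controls without overlap. The 6 signal recognition particle proteins lay between -0.03 and 0.08, beside the RN7SL3 value of -1.40.

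All 5 RNase P and MRP proteins had positive log2 fold changes, with a median of 0.31, and 1 of the 5 had an unadjusted p under 0.05. The sign of 2 of the 5 turned when 1 library was left out, with ranges of -0.12 to 0.13 for POP4 and -0.05 to 0.28 for RPP25. RPP40 had 49.4, 30.3 and 23.1 CPM in the libraries labelled knockdown, against 18.1, 14.8 and 19.8 CPM in the controls. All 3 libraries labelled knockdown lay above, with a log2 fold change of 0.97 (SE 0.26, edgeR adjusted p = 0.107). DESeq2 gave RPP40 an adjusted p of 0.0124, and the range over alternatives was 0.000766 to 0.423. Of the vault proteins, PARP4 had 46.0, 49.7 and 56.7 CPM in the libraries labelled knockdown, against 67.5, 85.7 and 67.0 CPM in the controls, without overlap (log2 fold change -0.53, edgeR adjusted p = 0.120). Its adjusted p ran from 0.0296, without knockdown replicate 3, where 14.8% of genes passed, to 0.467 over the alternatives. TROVE2, the Ro protein now named RO60, and SSB, the La protein, had -0.01 and -0.04.

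In the polymerase III machinery, 0 of 10 genes passed the adjusted threshold, and at an unadjusted p under 0.05 there were 2 higher and 2 lower. GTF3C1, a DNA-binding subunit of TFIIIC, had 194, 198 and 237 CPM in the libraries labelled knockdown, against 301, 303 and 304 CPM in the controls (log2 fold change -0.53, SE 0.15, edgeR adjusted p = 0.110). BDP1, a subunit of TFIIIB, had 483, 431 and 393 CPM in the libraries labelled knockdown, against 298, 317 and 293 CPM in the controls (log2 fold change 0.52, SE 0.15, edgeR adjusted p = 0.112). Neither pair of groups overlapped. BRF1, another TFIIIB subunit, had a log2 fold change of 0.58 (edgeR adjusted p = 0.116) and POLR3GL, a polymerase III subunit, -0.64 (edgeR adjusted p = 0.196), both without overlap. DESeq2 passed 3 of the 10 machinery genes, where it called 6.94% of all the genes it adjusted, with adjusted p of 0.0269 for GTF3C1, 0.0258 for BDP1 and 0.0437 for BRF1, against alternatives of 0.0206 to 0.423, 0.0258 to 0.423 and 0.0437 to 0.444. The large subunits POLR3A and POLR3B, POLR3G and the repressor MAF1 lay between -0.03 and 0.05. BRF2 and SNAPC1, initiation factors for genes such as RN7SK and RMRP, had 0.24 and 0.32, and BRF2 ran from -0.04 to 0.39 when each library was left out. SNAPC1 lay above the controls without overlap. The groups were thus free of overlap for 3 machinery genes above and 2 below, where 12.5% and 14.3% of all tested genes were.

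**Figure D5:**
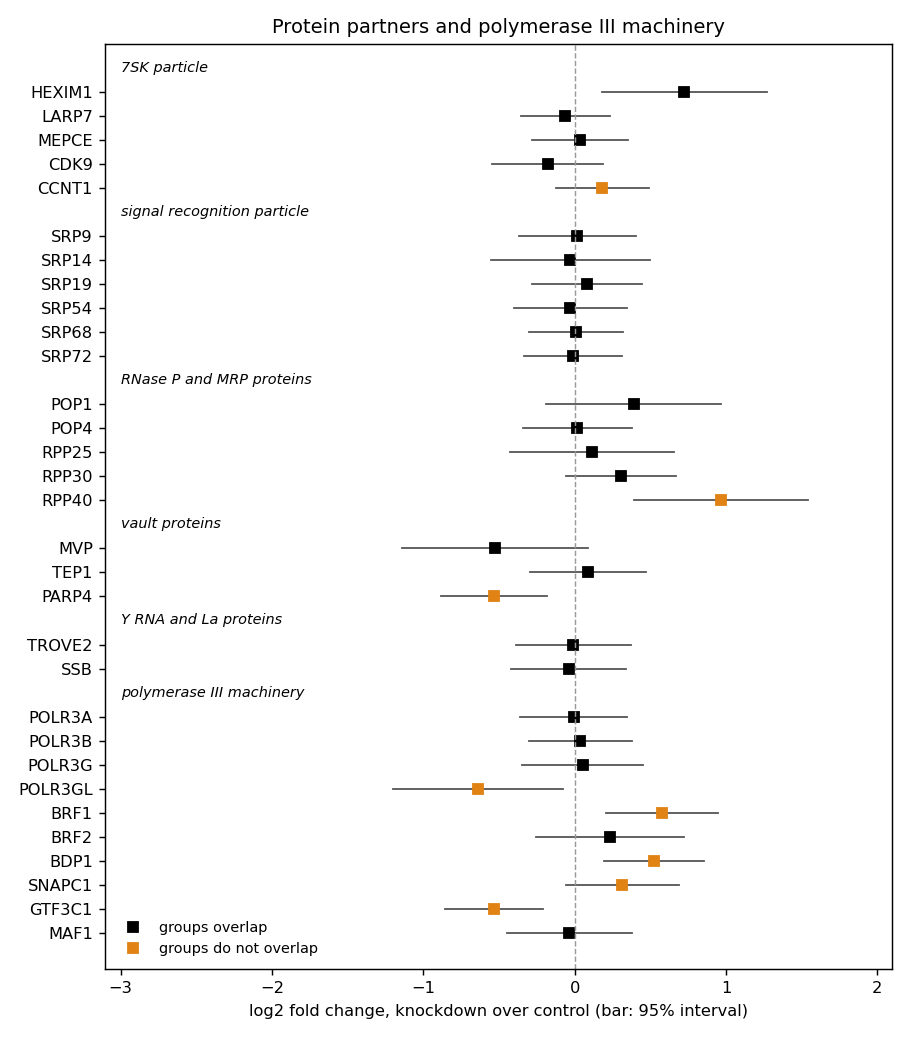
log2 fold change, libraries labelled knockdown over controls, of 31 protein partners and machinery genes by list, with bars for the 95% interval from the edgeR fit. RPP40 at 0.97 is the most positive and POLR3GL at -0.64 the most negative value, and the 6 signal recognition particle proteins lie near 0.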

How the data were processed

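The 6 HEK293 libraries hold total RNA without ribosomal RNA, made with a stranded kit per the labels. Whole-number counts of reads per gene were deposited for all of them in a single table, without normalization. The submitters' processing notes name TopHat2 2.0.13 and HTSeq with hg38, after bcl2fastq 2.18. Not given in the sources used here were the annotation release, strand setting, overlap mode and handling of multi-mapped reads. The 5 rows that name no gene, 59.4% to 70.0% of the table totals, were kept out of library sizes.

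Names, coordinates and sequences came from GENCODE 29 on GRCh38, which named 57055 of 60675 rows. The test was that of edgeR 4.0.16, run in R 4.3.3 (TMM factors, filterByExpr, quasi-likelihood F test, two-sided, Benjamini-Hochberg over 18267 genes, threshold 0.05). Intervals are 95%, the limit for 0 reads is 3 counts, and shares are of gene reads. The fit was tested on simulated data. Within a group, libraries differed beyond counting noise (chi-square per degree of freedom 11.4 to 74.1). Each was treated as 1 sample, though this spread does not show that they were separate cultures. Alternatives were other scalings, filters, DESeq2 1.42.0, voom of limma 3.58.1, a replicate block and leaving out each library. Summing each family was added after seeing the data. The members, lists, named genes and alternatives were chosen with earlier results of these data known. Named genes are the members, MOCS2, listed partner proteins and structured RNAs, and the 3 closest profiles of 4 members. Some sequences and 1 closest profile are not reported here.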

Additional observations from a re-analysis of the deposited data

How the results depend on the processing

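For all genes, the edgeR count of calls was 0. It was 1145 with the DESeq2 test, 1574 without a filter and 19 when the replicate block was added, and it ran from 0 to 2815 when each library was left out, with 2815 without knockdown replicate 3 and 4 without control replicate 3. The cause was not tested. The other scalings, voom and the 1 CPM filter gave 0, with 3560 to 3819 genes at an unadjusted p under 0.05. The number of members called was 0 under every alternative, with at most 1 at an unadjusted p under 0.05. The share of gene reads in the 8 members differed by 0.0662 percentage points, by -0.0480 of uniquely aligned reads, and by -0.285 to 0.327 without each library.

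Among the structured RNAs whose values are given and MOCS2, log2 fold changes that changed sign when a library was left out ran from -0.14 to 0.23 for RN7SK, -0.31 to 0.11 for RN7SL2, -0.494 to 0.0564 for RNY1, -0.212 to 0.0850 for AL355075.4, -0.13 to 0.18 for RNU4-2 and -0.0941 to 0.0267 for MOCS2. MOCS2 was 0.00949 with upper-quartile factors. Of the 31 protein genes, 17 changed sign when a library was left out, among them all 6 of the signal recognition particle, 2 of the 5 of RNase P and MRP, TROVE2, SSB and 5 of the 10 of the polymerase III machinery.

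Deviations of same-numbered libraries from their group means had correlations of 0.114, -0.167 and -0.125. Such deviations cancel within a group of 3, so these values cannot settle whether the numbers pair the samples. With the replicate block, RN7SL3 had an adjusted p of 0.0455. VTRNA1-1 and RNY3 had at most 13 and 3 reads per library, so their values carry little weight. The cause of these low counts was not tested.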
